A study of Mus musculus with 22 samples.

Results

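The effect of JWH133 in stressed mice was examined in the hearts of the treatment group, which received the drug during the stress procedure, against the hearts of the case group, which went through the stress without it. JWH133 is a synthetic agonist of the cannabinoid type II receptor (CB2R), and the labels give 10 mg/kg by intraperitoneal injection over 3 weeks, which the study's methods put at 2 injections a day from the start of the stress. The comparison holds 8 paired-end libraries of 22 in the series, with 4 treatment and 4 case libraries, and the 3 paired-end control libraries from unstressed mice stand beside them as a level. All mice were male and 6 weeks old at the start, the case and treatment mice shared the same chronic unpredictable stress, and the control mice received neither stress nor drug. No source used here names a strain, an injection of vehicle in the case group or a drug group without stress, so drug, injection and handling cannot be told apart in this comparison. The members were chosen by the group labels alone, and no measured value entered the choice.

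Total RNA of whole hearts was sequenced at 29410822 to 30940449 counts per treatment library, 29436126 to 34412849 per case library and 29628337 to 32078770 per control library. Each library carries the letter of its column in the table, and values are listed as a, b, c and d (a, b and c in the control group). Levels are FPKM, the count scaled by gene length and by the total of the library, computed here from the deposited counts. The tests are edgeR's quasi-likelihood tests on the counts in 1 model over the 11 libraries, and rose and fell are used of genes with a Benjamini-Hochberg adjusted p under 0.05. Fold changes are log2 values, given with a standard error (SE). Markers of cardiomyocytes took 122080 to 140790 CPM (counts scaled to a common library total) in the treatment libraries, 102750 to 116350 in the case libraries and 122680 to 134560 in the control libraries, and those of lung epithelium were at 0.0656 CPM or less in every library. Case library d stood apart from case libraries a, b and c: on the principal component that took 51.1% of the variance of the 8 libraries it had a score of -20.1, next to the treatment libraries (-33.7 to -20.8), while case a, b and c scored 53.5, 60.1 and 17.4. Pairs of case libraries differed by 32.9 to 141 in chi-square per degree of freedom, pairs of treatment libraries by 19.4 to 38.4 and pairs of control libraries by 7.61 to 15.0. Results are therefore given with all 11 libraries and, where they differ, without case library d. That library was singled out on these same values for its nearness to the treatment group. Larger differences without it are therefore not independent evidence.

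CB2R is coupled to inhibitory G proteins that lower cyclic AMP, and it is best known from immune cells, with little of it in heart muscle. Stress hormones reach the heart by several routes. Glucocorticoids enter cells and bind a receptor that acts on target genes such as Fkbp5, Tsc22d3 and Per1, catecholamines act through adrenergic receptors, and both change the use of fuel. Immediate early genes such as Fos are transcribed within minutes of a signal, and FoxO factors, which insulin keeps out of the nucleus, drive genes of fasting and muscle wasting such as Pdk4, Trim63 and Fbxo32.

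Hearts of the treatment group had lower levels of glucocorticoid-induced genes, immediate early genes, FoxO targets and acute phase genes than hearts of the case group. They had higher levels of platelet genes, of some calcium and channel genes and of apelin and its receptor. Apelin and its receptor were each called in only 1 of the 11 fits that left out 1 library, that without case library d. Of 14050 genes tested, 608 rose (4.33%) and 923 fell (6.57%). Over all genes tested, the median was 0.0063. Of the genes with a fold change above 1 in size, 121 rose and 303 fell. By the thresholds of the study, which are an unadjusted p under 0.05 with a log2 change larger than 1 in size, 319 genes were higher (2.27%) and 431 were lower (3.07%). Without case library d, 2125 of 13997 genes rose (15.2%) and 2267 fell (16.2%). Counts of list members without case library d are to be read beside these shares. In a fit on the 8 libraries alone, whose estimate of the spread leaves out the control group, 81 of 13671 genes rose (0.592%) and 189 fell (1.38%), and all 270 had the same sign and were called in the fit over 11 libraries. The 4 treatment libraries lay wholly above the 4 case libraries for 1023 genes (7.28%) and wholly below them for 965 (6.87%), and 516 and 611 of these were called. Counts of list members that were called or did not overlap, also on the 8 libraries, are likewise to be read beside the shares given here. Leaving out 1 library gave 373 (treatment b) to 4392 (case d) called genes, and 462, 599 and 461 without treatment a, c and d, 375 and 554 without case a and b, and 895, 929 and 812 without control a, b and c.

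The 12 largest falls were taken among called genes with a group mean of at least 1 FPKM whose 4 treatment libraries all lay below the 4 case libraries. Doc2b, a calcium sensor of vesicle fusion, was at 0.0593, 0.133, 0.165 and 0.108 FPKM in the treatment libraries and 2.32, 2.81, 1.79 and 0.241 FPKM in the case libraries (log2 fold change -4.00, SE 0.63, adjusted p = 0.00683). In control libraries, Doc2b was at 0.159, 0.132 and 0.143 FPKM. Case library d was close to the treatment libraries for this gene, and case libraries a, b and c were the high ones. Cdo1, which oxidizes cysteine, was at 0.845, 0.993, 0.798 and 1.13 FPKM in the treatment libraries and 23.8, 17.8, 7.28 and 1.22 FPKM in the case libraries (log2 fold change -3.81, SE 0.70, adjusted p = 0.0114). In control libraries, Cdo1 was at 0.633, 0.842 and 0.929 FPKM. The groups were apart by little here, with treatment library d at 1.13 FPKM and case library d at 1.22 FPKM. Dusp4, a nuclear phosphatase of MAP kinases, was at 1, 0.931, 0.993 and 0.7 FPKM in the treatment libraries and 11.6, 8.22, 8.09 and 1.88 FPKM in the case libraries (log2 fold change -3.09, SE 0.45, adjusted p = 0.00516). In control libraries, Dusp4 was at 0.76, 0.505 and 0.58 FPKM. Clec4d, a C-type lectin of myeloid cells, was at 0.141 to 0.298 FPKM in the treatment libraries, 0.977 to 2.54 FPKM in the case libraries and 0.0592 to 0.331 FPKM in the control libraries, and fell by 3.06 (SE 0.49, adjusted p = 0.00722). The other 8 were Fos, Pdk4, Irs2, Mt2, Fam107a, Serpina3n, Hmox1 and Nr4a1, which belong to the groups below. In the fit on the 8 libraries alone 10 of the 12 passed, and Pdk4 (adjusted p = 0.0539) and Hmox1 (adjusted p = 0.0622) did not.

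**Figure D1:**
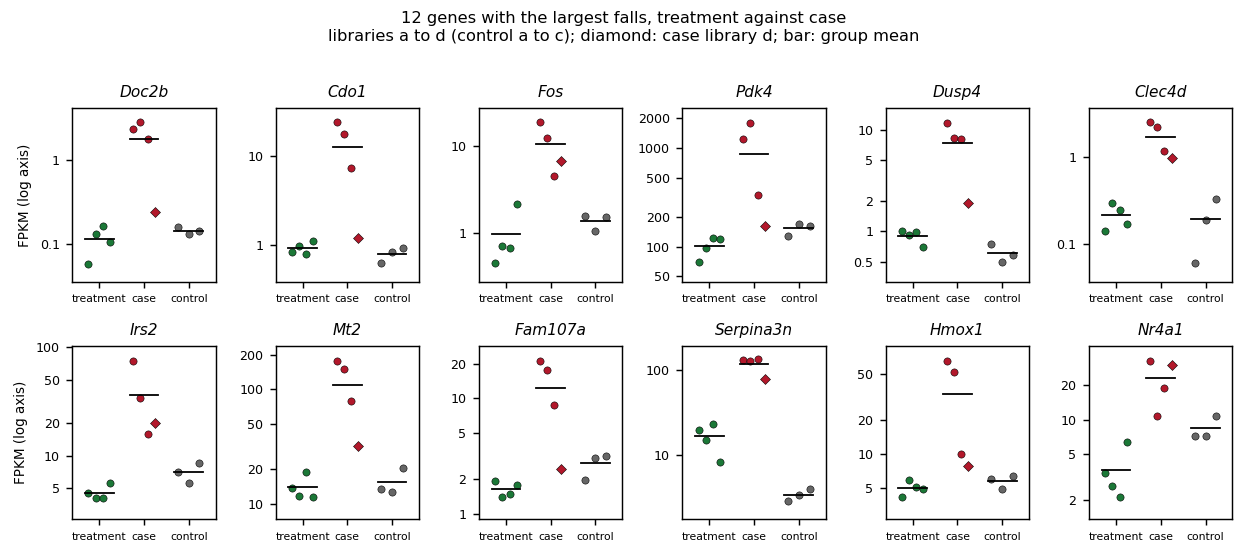
FPKM of the 12 genes with the largest falls in each library (points, log axis) for the treatment, case and control groups, with a bar at the group mean and a diamond for case library d. The treatment points lie below all case points in every panel, and the diamond is the case point nearest to them in 9 of the 12 panels, the exceptions being Fos, Irs2 and Nr4a1.

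Immediate early genes fell together, and case library d was here on the side of the other case libraries. Like the other lists below, this list was written with earlier results of these data known, so its counts are not independent evidence. Of 30 genes tested, 19 fell, 0 rose and 11 did not pass, with a median of -1.19 beside 0.0063 over all genes. The treatment libraries lay wholly below the case libraries for 17 of the 30, beside 6.87% of all genes. Fos, a subunit of the AP-1 transcription factor, was at 0.453, 0.708, 0.669 and 2.13 FPKM in the treatment libraries and 18.6, 12.3, 4.49 and 6.75 FPKM in the case libraries (log2 fold change -3.47, SE 0.54, adjusted p = 0.00676). In control libraries, Fos was at 1.56, 1.05 and 1.55 FPKM. All case libraries were above all treatment libraries, of which treatment library d was the high one. Nr4a1, an orphan nuclear receptor induced by many signals, was at 3.4, 2.64, 2.1 and 6.42 FPKM in the treatment libraries and 32.4, 10.7, 19 and 30.3 FPKM in the case libraries (log2 fold change -2.68, SE 0.39, adjusted p = 0.00516). In control libraries, Nr4a1 was at 7.26, 7.19 and 10.7 FPKM. Here case library d was among the high case libraries, and all treatment libraries lay below the 3 control libraries.

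Atf3, a stress-induced factor that dimerizes with AP-1 proteins, was at 1.89, 2.3, 1.32 and 3.26 FPKM in the treatment libraries and 21.7, 8.28, 5.87 and 7.71 FPKM in the case libraries (log2 fold change -2.36, SE 0.41, adjusted p = 0.00967). In control libraries, Atf3 was at 3.35, 2.71 and 2.85 FPKM. Case library a was the high one, and no case library reached down to the treatment libraries. Maff, a small Maf factor, fell by 2.29 (SE 0.34, adjusted p = 0.0052), with 2.66 to 3.64 FPKM in the treatment libraries and 6.27 to 21 FPKM in the case libraries. Junb, another AP-1 subunit, was at 4.12 to 5.74 FPKM in the treatment libraries, 11.1 to 18.9 FPKM in the case libraries and 3.36 to 4.36 FPKM in the control libraries (log2 fold change -1.71, SE 0.18, adjusted p = 0.00242). Myc, a factor of growth, was at 0.47 to 1 FPKM in the treatment libraries and 1.8 to 3.84 FPKM in the case libraries (log2 fold change -1.99, SE 0.31, adjusted p = 0.00648). Egr1, an immediate early zinc finger factor, did not pass, at 1.61, 2.21, 1.48 and 4.8 FPKM in the treatment libraries and 5.02, 5.1, 3.31 and 5.79 FPKM in the case libraries (adjusted p = 0.0746), and treatment library d lay within the case libraries. The score of the list, the median over its members of the log2 difference from the control mean, was -0.43, -0.30, -0.28 and -0.057 in the treatment libraries, 1.26, 0.78, 0.35 and 0.71 in the case libraries and -0.13 to 0.095 in the control libraries. The scores of the treatment and case groups did not overlap, case library d included. In the fit on the 8 libraries 12 members fell, and leaving out 1 library gave 13 (treatment b) to 20 (case c or case d).

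Genes induced by glucocorticoids fell together, and some of them, such as Pdk4, Mt2 and Cdkn1a, belong to other lists too. This list was also written with earlier results of these data known. Of 25 tested, 23 fell, none rose and the 2 that did not pass were Angptl4 (-0.43, adjusted p = 0.385) and Nr3c1, the glucocorticoid receptor itself (0.36, adjusted p = 0.123), with a list median of -1.49. Fkbp5, a chaperone that holds the receptor back and is induced by it, was at 4.75, 3.77, 4.07 and 2.82 FPKM in the treatment libraries and 26.9, 29, 18.4 and 7.53 FPKM in the case libraries (log2 fold change -2.47, SE 0.37, adjusted p = 0.00566). In control libraries, Fkbp5 was at 3.68, 5.53 and 5.66 FPKM. Fam107a, an actin-associated protein induced by stress and glucocorticoids, was at 1.93, 1.41, 1.51 and 1.8 FPKM in the treatment libraries and 20.8, 17.6, 8.7 and 2.45 FPKM in the case libraries (log2 fold change -2.97, SE 0.53, adjusted p = 0.0102). In control libraries, Fam107a was at 1.98, 3.07 and 3.2 FPKM. For both genes case libraries a, b and c were above case library d, which itself lay above every treatment library. Per1, a clock repressor that glucocorticoids induce, was at 8.73 to 13 FPKM in the treatment libraries, 25.5 to 35.4 FPKM in the case libraries and 23.1 to 25.6 FPKM in the control libraries (log2 fold change -1.55, SE 0.16, adjusted p = 0.00215). Tsc22d3, also called GILZ, an effector of the anti-inflammatory action of glucocorticoids, was at 18.5 to 24.2 FPKM in the treatment libraries, 31.1 to 51.5 FPKM in the case libraries and 28.9 to 31.7 FPKM in the control libraries (log2 fold change -1.09, SE 0.16, adjusted p = 0.00516). The treatment libraries of these 2 genes lay below the control libraries as well as below the case libraries.

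The separation of the glucocorticoid list was less complete in case library d. Its score was -0.25, -0.40, -0.28 and -0.36 in the treatment libraries, 1.82, 1.74, 1.24 and -0.0017 in the case libraries and -0.089 to 0.10 in the control libraries. The treatment libraries lay wholly below the case libraries for 12 of the 25 genes, beside 6.87% of all genes. Sgk1, a kinase that regulates ion transport, was at 20.4, 14.9, 13.8 and 20.8 FPKM in the treatment libraries and 104, 91.5, 26.1 and 19.4 FPKM in the case libraries (log2 fold change -1.86, SE 0.48, adjusted p = 0.0346), and case library d lay within the treatment libraries. Zbtb16, a zinc finger factor, was at 46.4, 24.8, 30.9 and 45.6 FPKM in the treatment libraries and 117, 124, 115 and 45.8 FPKM in the case libraries (log2 fold change -1.49, SE 0.31, adjusted p = 0.0183), again with case library d inside the range of the treatment libraries. Hsd11b1, which regenerates active glucocorticoid inside cells, was at 1.75 to 3.1 FPKM in the treatment libraries and 2.95 to 8.03 FPKM in the case libraries (log2 fold change -1.31, SE 0.31, adjusted p = 0.0279). Without case library d 23 members fell and Nr3c1 rose (adjusted p = 0.000298), in the fit on the 8 libraries 10 fell, and leaving out 1 library gave 11 (treatment b or case a) to 23. The counts were 14, 12 and 12 without treatment a, c and d and 13 without case b.

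Metallothioneins bind zinc and copper, and both metals and glucocorticoids induce them. Mt2 was at 13.9, 11.7, 19.1 and 11.4 FPKM in the treatment libraries and 175, 151, 79.7 and 32.3 FPKM in the case libraries (log2 fold change -3.03, SE 0.46, adjusted p = 0.00615). In control libraries, Mt2 was at 13.5, 12.7 and 20.8 FPKM. Mt1 was at 41.2, 36.2, 36.5 and 31.4 FPKM in the treatment libraries and 218, 199, 119.9 and 66.9 FPKM in the case libraries (log2 fold change -2.11, SE 0.32, adjusted p = 0.00625). In control libraries, Mt1 was at 40.3, 34.8 and 48.9 FPKM. In both genes all case libraries were above all treatment and control libraries, case library d was the lowest of them, and the treatment and control ranges overlapped. Slc39a8, a zinc and manganese importer, fell by 1.50 (SE 0.42, adjusted p = 0.0427) but was not called in 9 of the 11 leave-one-out fits. Of the 11 genes of metal binding and zinc transport tested, 3 fell, none rose and the median was -0.16. Mt3, the zinc exporter Slc30a1 and Mtf1, the zinc-sensing factor that induces metallothioneins, did not pass (0.42, -0.16 and 0.054).

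The bases before the start sites of 4 of these genes are shown because they hold a motif that fits the groups above, from RefSeq on GRCm38.p6, 250 bases each and 5′ to 3′ on the strand of the gene. Capitals mark the metal response core TGCNCNC in Mt2, the glucocorticoid response element, an inverted repeat, in Mt1 and Fam107a and the cyclic AMP response element TGACGTCA in Maff, each searched on both strands. The Mt2 stretch is chr8:94172368-94172617 on the plus strand, that of Mt1 chr8:94178839-94179088 on the plus strand, that of Fam107a chr14:8309780-8310029 on the minus strand, at 1 of its 3 listed starts, and that of Maff chr15:79347270-79347519 on the plus strand, also at 1 of 3.
Mt2: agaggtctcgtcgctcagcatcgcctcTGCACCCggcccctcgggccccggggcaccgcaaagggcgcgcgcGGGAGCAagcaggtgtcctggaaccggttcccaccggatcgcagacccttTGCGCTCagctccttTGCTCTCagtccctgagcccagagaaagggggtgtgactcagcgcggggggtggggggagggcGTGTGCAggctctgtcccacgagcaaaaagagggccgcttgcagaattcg
Mt1: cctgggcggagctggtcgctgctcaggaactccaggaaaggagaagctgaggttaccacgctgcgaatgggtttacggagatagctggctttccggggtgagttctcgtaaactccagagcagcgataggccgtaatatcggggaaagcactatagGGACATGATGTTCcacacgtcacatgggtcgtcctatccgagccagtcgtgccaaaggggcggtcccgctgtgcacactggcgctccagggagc
Fam107a: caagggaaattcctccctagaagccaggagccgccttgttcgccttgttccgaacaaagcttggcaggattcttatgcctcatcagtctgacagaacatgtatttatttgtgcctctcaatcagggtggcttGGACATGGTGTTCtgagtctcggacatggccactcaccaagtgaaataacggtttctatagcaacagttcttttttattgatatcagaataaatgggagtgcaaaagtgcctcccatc
Maff: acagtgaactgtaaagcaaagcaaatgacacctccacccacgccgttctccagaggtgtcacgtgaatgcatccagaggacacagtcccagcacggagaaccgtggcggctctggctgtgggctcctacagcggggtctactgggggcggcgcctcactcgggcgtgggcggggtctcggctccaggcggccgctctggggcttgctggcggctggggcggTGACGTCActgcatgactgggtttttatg
The Mt2 stretch holds 5 matches to the metal response core, at -223, -178, -128, -113 and -50 from the start, where 44.4% of 32851 promoters hold at least 1 and 0.344% hold 5 or more. The Mt1 stretch holds 1 such match and 1 to the glucocorticoid response element, which 0.387% of the promoters hold. The cyclic AMP response element was found in 1.55% of the promoters and the forkhead motif GTAAACA in 3.17%. Of the members tested that have a RefSeq promoter, the metal response core was found in 8 of 10 of the metallothionein and zinc list, the cyclic AMP response element in 3 of 23 immediate early genes (Btg2, Maff and Dusp1), the forkhead motif in 2 of 22 genes of insulin and FoxO (Trim63 and Txnip) and the glucocorticoid response element in 3 of 21 glucocorticoid-induced genes (Sgk1, Mt1 and Fam107a). A gene was counted if any of its listed starts matched, while the percentages above are over single promoters, so these are unlike measures. Fos, Irs2 and Pdk4 held no match to the motif searched for their list in this window. A match is a description of the letters and does not show a site in use.

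Genes of insulin signalling and FoxO fell in larger part. Of 26 tested, 16 fell and none rose (median -0.83). Pdk4, a kinase that shuts off pyruvate dehydrogenase in fasting, was at 70.2, 98.1, 123 and 119 FPKM in the treatment libraries and 1224, 1778, 329.6 and 162 FPKM in the case libraries (log2 fold change -3.18, SE 0.63, adjusted p = 0.015). In control libraries, Pdk4 was at 129, 171 and 162 FPKM. Case libraries a and b were far above the rest, and case library d, at 162 FPKM, lay inside the control libraries and above all treatment libraries. Irs2, an adaptor of the insulin receptor that FoxO factors induce, was at 4.56, 4.07, 4.1 and 5.55 FPKM in the treatment libraries and 74.5, 33.9, 15.9 and 19.9 FPKM in the case libraries (log2 fold change -3.04, SE 0.44, adjusted p = 0.00516). In control libraries, Irs2 was at 7.09, 5.55 and 8.62 FPKM. All 4 case libraries were above both other groups for Irs2. Irs1, the related adaptor, did not pass, at 13.5 to 17.4 FPKM in the treatment libraries and 10.9 to 21.6 FPKM in the case libraries (-0.06, adjusted p = 0.855).

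FoxO factors and ubiquitin ligases of muscle wasting fell too. Foxo3 fell by 1.13 (SE 0.20, adjusted p = 0.00999), with 27.3 to 31.9 FPKM in the treatment libraries, 37.7 to 77.2 FPKM in the case libraries and 29.3 to 33.3 FPKM in the control libraries, and Foxo1 fell by 0.92 (SE 0.22, adjusted p = 0.0287). Gabarapl1, an autophagy protein and FoxO target, was at 37, 40.0, 45 and 36.7 FPKM in the treatment libraries and 239, 261, 121 and 50.4 FPKM in the case libraries (log2 fold change -2.15, SE 0.41, adjusted p = 0.0132). In control libraries, Gabarapl1 was at 37.4, 32.9 and 37.8 FPKM. Fbxo32, also called atrogin, a ubiquitin ligase of muscle wasting, was at 38.1, 50.3, 50.9 and 41.5 FPKM in the treatment libraries and 129, 207, 116 and 56.6 FPKM in the case libraries (log2 fold change -1.55, SE 0.31, adjusted p = 0.0158). In control libraries, Fbxo32 was at 47.3 to 51 FPKM. Trim63, the other such ligase, was at 64.1, 68.9, 67.2 and 55.4 FPKM in the treatment libraries and 291, 331, 116 and 49.8 FPKM in the case libraries (log2 fold change -1.70, SE 0.46, adjusted p = 0.0393), and case library d lay below all treatment libraries. The list score was -0.053 to 0.05 in the treatment libraries, 1.14, 1.26, 0.96 and 0.036 in the case libraries and -0.047 to 0.055 in the control libraries, so that case library d scored as the treatment and control libraries did. In the fit on the 8 libraries 3 members fell (Irs2, Foxo3 and Gabarapl1), without case library d 20 fell, without treatment a, b, c and d 7, 5, 7 and 5 fell, and without case a and b 5 and 7.

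Some genes of fatty acid use fell. Of 33 tested, 8 fell and none rose (median -0.13). The uncoupling protein genes Ucp3 and Ucp2 fell by 1.47 (SE 0.30, adjusted p = 0.0161) and 1.15 (SE 0.20, adjusted p = 0.00967), and Pnpla2, which starts the breakdown of stored fat, fell by 0.99 (SE 0.26, adjusted p = 0.0366), and was not called in 10 of the 11 leave-one-out fits. Those fits gave 3 (treatment a or b), 4 (treatment c or d, case a or b, or any 1 control library), 5 (case c) and 12 (case d) members that fell. Acadm, an enzyme of the oxidation cycle itself, was at 250.2 to 276 FPKM in the treatment libraries and 244 to 289.9 FPKM in the case libraries (-0.048, SE 0.082), and the groups overlapped. Slc2a1, the basal glucose transporter, fell by 0.98 (SE 0.18, adjusted p = 0.0109), with 6.59 to 7.61 FPKM in the treatment libraries and 9.26 to 16.6 FPKM in the case libraries, and Slc2a4, the insulin-responsive transporter, did not pass (-0.076, SE 0.099). Of 31 nuclear genes of the respiratory chain and 12 genes of the mitochondrial genome none passed in either direction, with medians of 0.096 and -0.066. At an unadjusted p under 0.05 in edgeR 7 and 0 of them passed, and with DESeq2 2 and 0. Among 13 genes of pyruvate dehydrogenase and its regulators, Pdk4 was the 1 that passed (median -0.061), and without case library d 4 of them fell.

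**Figure D2:**
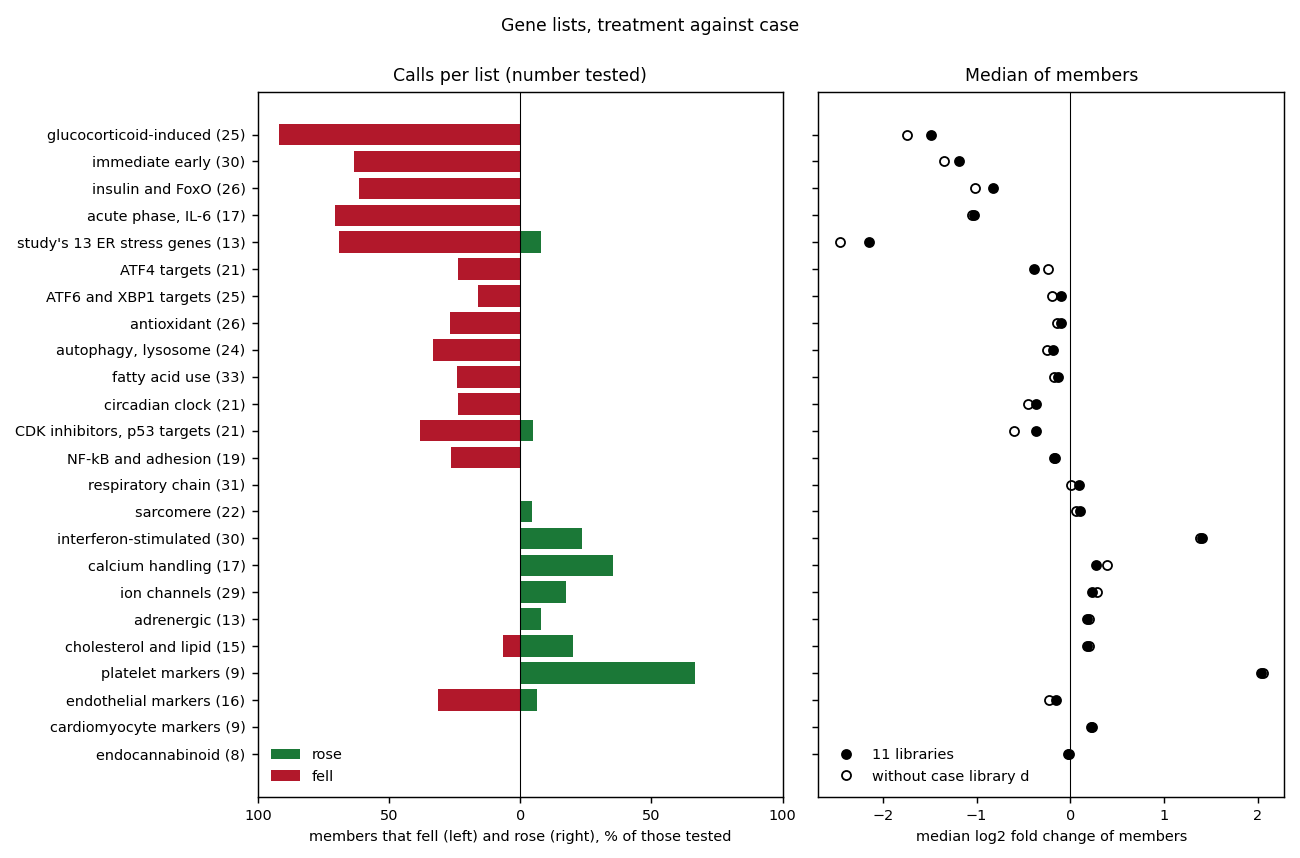
Left, the share of the members of each list that fell (left of 0) or rose (right of 0) in the treatment group against the case group, in % of the members tested, whose number stands beside the name, and right, the median log2 fold change of the members with 11 libraries (filled) and without case library d (open). Over all genes tested 4.33% rose and 6.57% fell, and 23 of 25 glucocorticoid-induced genes, 19 of 30 immediate early genes and none of 31 respiratory chain genes fell. The lists were written with earlier results of these data known, so the shares are a description.

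Of the 13 ER stress genes that the study singled out, 9 fell, 1 rose and 3 did not pass. The study chose them on these same samples, so their direction is not independent evidence. The 9 that fell were Fos, Atf3, Fkbp5 and Gabarapl1, given above, Serpina3n, Cdkn1a, Herpud1, Ppp1r15a and Nox4. Herpud1, which organizes the degradation of ER proteins, was at 87.5, 81.3, 83.3 and 106 FPKM in the treatment libraries and 497, 599, 431 and 131 FPKM in the case libraries (log2 fold change -2.27, SE 0.37, adjusted p = 0.00758). In control libraries, Herpud1 was at 110.3, 103 and 127 FPKM. Ppp1r15a, also called GADD34, which reverses the phosphorylation of eIF2α, was at 4.35, 4.16, 4.37 and 4.39 FPKM in the treatment libraries and 19.7, 22.9, 11.8 and 5.46 FPKM in the case libraries (log2 fold change -1.86, SE 0.36, adjusted p = 0.0143). In control libraries, Ppp1r15a was at 3.7 to 4.84 FPKM. For both genes the case libraries were all above the treatment libraries, by the least in case library d. Cdkn1a, which encodes the cell cycle inhibitor p21, was at 9.87, 10.4, 5.97 and 5.64 FPKM in the treatment libraries, 90.2, 71.7, 27.6 and 7.87 FPKM in the case libraries and 4.62, 5.13 and 4.5 FPKM in the control libraries (log2 fold change -2.71, SE 0.59, adjusted p = 0.0206), and case library d lay within the treatment libraries. Nox4, an NADPH oxidase, was at 0.34, 0.835, 0.677 and 0.532 FPKM in the treatment libraries and 2.37, 1.3, 0.762 and 3.19 FPKM in the case libraries (log2 fold change -1.70, SE 0.40, adjusted p = 0.0262), with case library d as the highest case library and case library c inside the treatment range. Neither Cdkn1a nor Nox4 was called in 5 of the 11 leave-one-out fits, without any 1 treatment library and without case a (adjusted p up to 0.0642 for Cdkn1a and 0.0742 for Nox4 over all alternatives).

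Casq1, calsequestrin of skeletal muscle, was the member that rose, at 3.58, 4.9, 4.25 and 5.71 FPKM in the treatment libraries and 0.729, 0.983, 1.55 and 2.56 FPKM in the case libraries (log2 fold change 1.67, SE 0.30, adjusted p = 0.0112). In control libraries, Casq1 was at 9.83, 15.9 and 11.6 FPKM. The 3 groups did not overlap, with the treatment libraries between the case and control libraries. Hp, haptoglobin, was at 1.61, 0.212, 0.756 and 1.26 FPKM in the treatment libraries and 8.53, 1.94, 2.82 and 2.16 FPKM in the case libraries and did not pass (log2 fold change -2.05, SE 0.66, adjusted p = 0.0646), although its groups did not overlap. Tfrc, the transferrin receptor, was at 49.4, 32.8, 23.8 and 24.2 FPKM in the treatment libraries, 2.24, 4.01, 3.31 and 25.7 FPKM in the case libraries and 25.7, 41.9 and 45.8 FPKM in the control libraries, and did not pass (log2 fold change 1.92, SE 0.64, adjusted p = 0.0689). Case library d lay within the treatment libraries for Tfrc, and without it the gene passed (adjusted p = 4.59e-05). Nos2, the inducible nitric oxide synthase, did not pass either (1.18, SE 0.39, adjusted p = 0.0691, and adjusted p = 0.00146 without case library d).

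In wider lists of ER stress some members fell. Of 21 genes of the integrated stress response driven by ATF4, 5 fell and none rose (median -0.39), and of 25 chaperones and targets of ATF6 and XBP1, 4 fell and none rose (median -0.098), beside 6.57% of all genes that fell. Without case library d these counts were 8 and 8, beside 16.2% of all genes that fell in that fit. The ATF6 and XBP1 list gave 1 without treatment b and 2 without treatment d. Chac1, which breaks down glutathione, was at 2.35, 2.06, 2.38 and 1.54 FPKM in the treatment libraries, 11.3, 15.2, 8.99 and 3.09 FPKM in the case libraries and 4.47, 3.98 and 3.5 FPKM in the control libraries (log2 fold change -2.27, SE 0.40, adjusted p = 0.00967), with no overlap between treatment and either other group. Dnajb9, a cochaperone of the ER, fell by 1.04 (SE 0.21, adjusted p = 0.0155). Hspa5, which encodes GRP78 or BiP, the main chaperone of the ER, was at 110.3, 85.6, 84.8 and 74.4 FPKM in the treatment libraries and 74.8, 76.2, 144 and 79.7 FPKM in the case libraries (-0.098, SE 0.19, adjusted p = 0.76), with case library c as the high one. Atf4 itself (-0.80, adjusted p = 0.0727) and Xbp1 (-0.27, adjusted p = 0.211) did not pass. Of 14 cytosolic heat shock genes none passed in edgeR (median 0.012), 3 did at an unadjusted p under 0.05 and 1 with DESeq2.

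Acute phase genes and receptors of the IL-6 family, which signals through STAT3, fell in larger part, and Serpina3n and Lcn2 were still above every control library. Of 17 tested, 12 fell and none rose (median -1.03). Serpina3n, an acute phase inhibitor of proteases, was at 19.9, 15.2, 23.4 and 8.44 FPKM in the treatment libraries and 132, 127, 134 and 77.6 FPKM in the case libraries (log2 fold change -2.86, SE 0.29, adjusted p = 0.00215). In control libraries, Serpina3n was at 2.94, 3.43 and 4.02 FPKM. The 3 groups did not overlap. Lcn2, an iron-binding acute phase protein, was at 3.87, 2.07, 2.84 and 1.12 FPKM in the treatment libraries, 5.92, 5.85, 7.22 and 5.22 FPKM in the case libraries and 0.217, 0.515 and 0.475 FPKM in the control libraries (log2 fold change -1.32, SE 0.32, adjusted p = 0.0281), again in 3 separate ranges. Serpina3n has near-identical neighbours whose reads may be shared, among them Serpina3m, which fell by 4.51 (SE 1.01, adjusted p = 0.0222) at 7, 1, 4 and 0 counts in the treatment libraries and 89, 144, 60 and 2 counts in the case libraries. Saa3, serum amyloid A3, fell by 4.03 (SE 1.09, adjusted p = 0.0386) at 10, 2, 6 and 1 counts in the treatment libraries and 242, 43, 43 and 3 counts in the case libraries. For both of these low genes case library d was as low as the treatment libraries. Both passed the filter on low counts only through case libraries a, b and c, where they were high. With the filter of 1 CPM in 4 libraries, 15 members of the list were tested and 10 fell. In the 8 leave-one-out fits that tested them, Saa3 was called in 1, and lost the call without any 1 treatment or control library, and Serpina3m was called in 5, and lost it without treatment b, c or d.

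The receptors and factors of the IL-6 pathway changed less in size. Those that fell include Il6ra, a receptor of IL-6 (log2 fold change -1.14, SE 0.24, adjusted p = 0.0193), Osmr, the oncostatin M receptor (log2 fold change -0.75, SE 0.12, adjusted p = 0.00683), Stat3 (log2 fold change -0.54, SE 0.11, adjusted p = 0.0148) and Socs3, the feedback inhibitor that STAT3 induces (log2 fold change -1.24, SE 0.29, adjusted p = 0.0263). Osmr was at 6.23, 5.34, 5.97 and 5.65 FPKM in the treatment libraries, 10.1, 7.28, 12 and 8.98 FPKM in the case libraries and 3.51 to 3.88 FPKM in the control libraries, in 3 ranges that did not overlap. The list score was 0.51, 0.069, 0.30 and 0.089 in the treatment libraries, 1.54, 1.39, 1.36 and 0.33 in the case libraries and -0.076 to 0.053 in the control libraries, so that case library d lay inside the treatment range. In the fit on the 8 libraries 3 members fell, and leaving out 1 library gave 4 (treatment b, treatment d or case a) to 14 (case d), with 7 and 6 without treatment a and c and 6 without case b, and 8 without case c.

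Other inflammatory genes gave mixed counts. Of 18 complement genes 3 fell, beside 6.57% of all genes. Among these 3 was C3, the central component (61.8 to 100.3 FPKM in the treatment libraries, 103 to 168 FPKM in the case libraries and 32.4 to 47.2 FPKM in the control libraries, adjusted p = 0.0183). The complement count was 6, with 2 that rose, without case d, 5 without case b, 1 without treatment d or case a, and 2 without treatment a, b or c or control b or c, and C3 lost the call without treatment b, treatment d or case a. Of 19 genes of NF-κB and adhesion 5 fell and none rose (median -0.18), among them Nfkbia, the inhibitor that NF-κB and glucocorticoids induce (log2 fold change -1.48, SE 0.33, adjusted p = 0.0219), and Tlr4, the receptor of endotoxin (log2 fold change -1.10, SE 0.27, adjusted p = 0.0288). The NF-κB count was 0 without treatment b, treatment d or case a, 1 without treatment a, treatment c or case b, and 0 in the fit on the 8 libraries, where 8 passed at an unadjusted p under 0.05. Of 29 cytokines and chemokines 2 fell, the chemokines Ccl9 (log2 fold change -1.51, SE 0.34, adjusted p = 0.022) and Ccl6 (log2 fold change -1.37, SE 0.30, adjusted p = 0.0209), and 1 rose, the growth factor Csf1 (log2 fold change 0.90, SE 0.26, adjusted p = 0.0461), shares close to the 6.57% and 4.33% of all genes. The counts were 5 that rose and 3 that fell without case library d (median 0.39, against 0.039 with it). The number that fell was 0 without treatment b, c or d and 1 without treatment a or case a. Csf1 was not called in 10 of the 11 leave-one-out fits, all but that without case d, Ccl9 not without any 1 treatment library, and Ccl6 not without treatment b, c or d or case a. Macrophage markers summed to 551 to 687 CPM in the treatment libraries, 533 to 985 in the case libraries and 509 to 552 in the control libraries. Of 17 such markers 4 fell and none rose, but 9 fold changes were above 0 and 8 below it, with a median of 0.055. Those that fell include Cd163, a scavenger receptor of hemoglobin and a target of glucocorticoids (log2 fold change -1.40, SE 0.25, adjusted p = 0.00972), and Mrc1, the mannose receptor (log2 fold change -0.52, SE 0.13, adjusted p = 0.0286). The count that fell was 2 without treatment b, treatment d or case a. Without case library d 6 fell and 4 rose, in a fit where 15.2% of all genes rose and 16.2% fell. The complement and cytokine counts without it are to be read beside the same shares. In whole hearts, fewer cells of a type and less RNA per cell cannot be told apart.

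Interferon-stimulated genes were high in treatment libraries b and d. Of 30 tested 7 rose, none fell and the median was 1.40. Isg15, a ubiquitin-like protein, was at 3.26, 21.6, 2.19 and 9.86 FPKM in the treatment libraries and 1.73, 0.744, 2.92 and 2.95 FPKM in the case libraries (log2 fold change 2.14, SE 0.63, adjusted p = 0.0487). In control libraries, Isg15 was at 3.5, 4.42 and 3.99 FPKM. Ifi44, another gene of this response, was at 1.03, 10.3, 0.99 and 3.84 FPKM in the treatment libraries and 0.842, 0.408, 1.2 and 0.909 FPKM in the case libraries (log2 fold change 2.25, SE 0.64, adjusted p = 0.0456). In control libraries, Ifi44 was at 1.61, 1.44 and 1.29 FPKM. Treatment libraries a and c lay among the case libraries for Ifi44, and c among and a just above them for Isg15. Rsad2, also called viperin, was at 7.87, 20.8, 6.69 and 12.9 FPKM in the treatment libraries and 4.5, 2.26, 6.54 and 4.04 FPKM in the case libraries (log2 fold change 1.46, SE 0.34, adjusted p = 0.0256), and it was the 1 member of the list without overlap, with treatment library c at 6.69 FPKM against 6.54 FPKM in case library c. The list score was -0.12, 1.73, -0.30 and 1.14 in the treatment libraries, -0.48, -1.23, -0.044 and -0.26 in the case libraries and -0.0093 to 0.065 in the control libraries. At an unadjusted p under 0.05, 27 of the 30 passed over 11 libraries and 23 on the 8 libraries. Without treatment b or treatment d, and without case a or case b, 0 members rose, 16 rose without case d, 12 without treatment c, 5 without treatment a, 2 without any 1 control library, and 0 in the fit on the 8 libraries. None of 17 genes of antigen presentation passed in edgeR (median 0.59), 4 did at an unadjusted p under 0.05 and 1 with DESeq2.

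**Figure D3:**
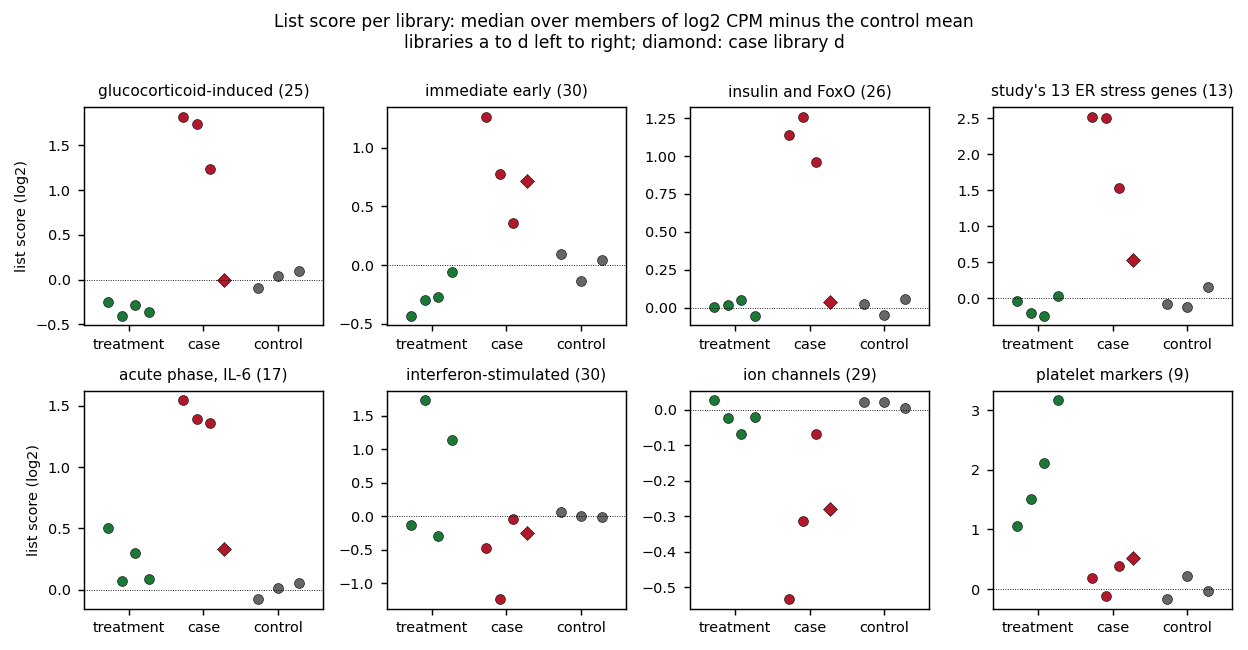
Score of 8 lists in each library, the median over the members of log2 CPM minus the mean of the control group, with the number of members tested in the title and a diamond for case library d. Treatment and case scores are apart for the immediate early, glucocorticoid, ER stress and platelet lists, case library d lies with the treatment libraries for the FoxO and acute phase lists, and treatment libraries b and d alone are high for the interferon list.

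Several smaller groups fell in part. Hmox1, heme oxygenase, was at 4.15, 5.92, 5.11 and 4.94 FPKM in the treatment libraries, 64.8, 52.8, 9.94 and 7.78 FPKM in the case libraries and 6.07, 4.9 and 6.37 FPKM in the control libraries (log2 fold change -2.83, SE 0.61, adjusted p = 0.0198), with case libraries a and b far above c and d. It lost the call without any 1 treatment library and without case a (adjusted p up to 0.0622 over all alternatives). Of 26 antioxidant genes 7 fell and none rose (median -0.096), among them Gclm, a subunit of the first enzyme of glutathione synthesis (log2 fold change -1.54, SE 0.41, adjusted p = 0.0368), and Gpx3, a glutathione peroxidase (log2 fold change -1.14, SE 0.23, adjusted p = 0.0159), and Nqo1, a target of NRF2, did not pass (0.12, SE 0.091). Gclm was not called in 9 of the 11 leave-one-out fits. The count was 2 without treatment b, c or d or case a, 3 without treatment a or case b, 4 without any 1 control library and 11 without case d. Of 24 genes of autophagy and the lysosome 8 fell and none rose (median -0.19), with Sqstm1, the cargo receptor p62, at 71 to 87.4 FPKM in the treatment libraries and 99.9 to 211 FPKM in the case libraries (log2 fold change -1.04, SE 0.21, adjusted p = 0.0159). This count was 1 without treatment a or b, 2 without treatment c or d or case a or b, 5 without case c or any 1 control library, and 12 without case d. Of 21 CDK inhibitors, cyclins and p53 targets 8 fell and 1 rose (median -0.36), with Trp53inp1, a p53 target, which fell by 2.59 (SE 0.54, adjusted p = 0.0177), and that count was 1 without treatment b or d or case a, 2 without treatment a and 4 without treatment c or case b. Glul, glutamine synthetase, fell by 1.67 (SE 0.26, adjusted p = 0.00651), with 113 to 138 FPKM in the treatment libraries, 189 to 507 FPKM in the case libraries and 111 to 136 FPKM in the control libraries.

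Some clock genes fell. Of 21 tested 5 fell and none rose (median -0.36), with 2 without treatment a or b or case a, 3 without treatment c or case b, and 8 without case d. Over all genes 6.57% fell, and 16.2% did without case library d. Ciart, a repressor of the circadian clock, was at 1.49, 0.481, 1.74 and 1.83 FPKM in the treatment libraries and 4.21, 4.33, 6.46 and 6.91 FPKM in the case libraries (log2 fold change -1.99, SE 0.31, adjusted p = 0.00649). In control libraries, Ciart was at 8.85, 9.39 and 10.8 FPKM. The 3 groups did not overlap, with the treatment group lowest. Arntl, a core activator also called BMAL1, was at 2.73, 4.39, 2.04 and 0.756 FPKM in the treatment libraries, 7.51, 5.35, 2.03 and 0.601 FPKM in the case libraries and 0.336, 0.278 and 0.261 FPKM in the control libraries, and did not pass (-0.73, SE 0.64, adjusted p = 0.472). Dbp, an output factor of the clock, was at 19.6, 11.4, 23.1 and 15.6 FPKM in the treatment libraries and 2.53, 2.69, 26.2 and 31.9 FPKM in the case libraries (0.18, SE 0.64), with case libraries a and b below all treatment libraries and c and d above them. The time of day at which hearts were taken is not given in the sources used here, and its part in these values was not tested.

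Among the genes that rose, those of the calcium store of heart muscle changed by small amounts, apart from Casq1, given above, which the study chose on these same samples. Of 17 genes of calcium handling 6 rose and none fell (median 0.27), beside 4.33% of all genes that rose. Casq2, cardiac calsequestrin, which buffers calcium in the sarcoplasmic reticulum, was at 360.1, 321, 316 and 328 FPKM in the treatment libraries and 189, 243, 211 and 306 FPKM in the case libraries (log2 fold change 0.46, SE 0.11, adjusted p = 0.0303). In control libraries, Casq2 was at 343, 347 and 341 FPKM. Jph2, junctophilin, which ties the store to the surface membrane, was at 122, 112, 96.6 and 109.7 FPKM in the treatment libraries and 56.4, 69.5, 79.6 and 94.1 FPKM in the case libraries (log2 fold change 0.54, SE 0.11, adjusted p = 0.0194). In control libraries, Jph2 was at 118, 113 and 115 FPKM. Srl, sarcalumenin, was at 231 to 269.9 FPKM in the treatment libraries, 148 to 199.9 FPKM in the case libraries and 303 to 320.0 FPKM in the control libraries (log2 fold change 0.53, SE 0.11, adjusted p = 0.0201). The treatment libraries were above all case libraries for these 3 genes, with case library d the nearest case library for each. Casq2 was called in 4 of the 11 leave-one-out fits, Jph2 in 8 and Srl in 7. Ryr2, the release channel (0.06, SE 0.096), and Atp2a2, the pump SERCA2 (0.13, SE 0.075), did not pass.

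Of 29 ion channel genes 5 rose and none fell (median 0.24), beside 4.33% of all genes that rose. Hcn4, the pacemaker channel, was at 4.05, 4.28, 4.06 and 4.52 FPKM in the treatment libraries and 1.28, 1.72, 2.88 and 2.45 FPKM in the case libraries (log2 fold change 1.01, SE 0.18, adjusted p = 0.01). In control libraries, Hcn4 was at 4.36, 5.27 and 4.57 FPKM. Cacna1g, a T-type calcium channel, was at 3.55, 4.07, 3.97 and 3.94 FPKM in the treatment libraries and 1.37, 1.29, 3.04 and 3.16 FPKM in the case libraries (log2 fold change 0.81, SE 0.23, adjusted p = 0.0436). In control libraries, Cacna1g was at 3.95, 4.48 and 4.12 FPKM. The groups were apart for both genes, and case libraries a and b were the low ones. Cacnb2, a calcium channel subunit (log2 fold change 0.66, SE 0.17, adjusted p = 0.0317), Kcnd2, of the transient outward current (log2 fold change 0.43, SE 0.11, adjusted p = 0.0381), and Kcnq1, of the slow delayed current (log2 fold change 0.37, SE 0.11, adjusted p = 0.0476), rose as well, and case library d lay within the treatment range of Cacnb2 and Kcnd2. Among the 11 leave-one-out fits, Hcn4 was called in 11, Cacna1g in 2, Cacnb2 in 4 and Kcnd2 in 2. Leaving out 1 library gave 1 (treatment a, c or d, case a, or control a or c) to 13 (case d) channel genes that rose, with 2 without treatment b, case b or control b and 9 without case c. The calcium list gave 1 (treatment b or d) to 8 (case d), with 2 without treatment a or case a, 3 without treatment c and 4 without case b or control c. In the fit on the 8 libraries 1 gene rose in the calcium list (Casq1) and 1 in the channel list (Hcn4). Casq1 was also the 1 calcium gene that rose without treatment b or d.

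**Figure D4:**
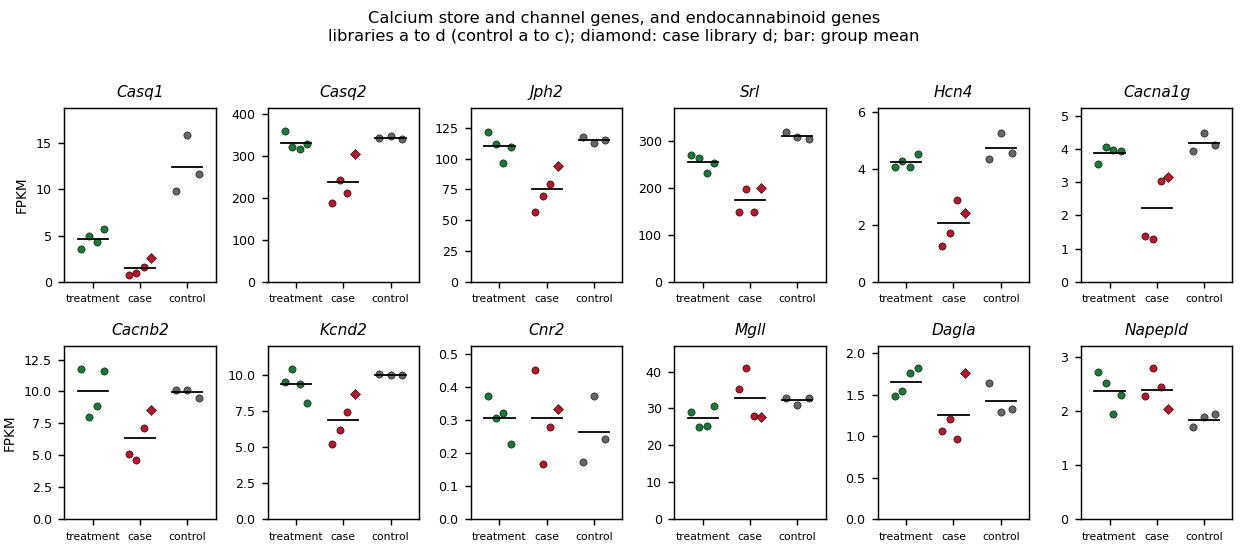
FPKM of calcium store, channel and endocannabinoid genes in each library (points, linear axis from 0), with a bar at the group mean and a diamond for case library d. The treatment points are above all case points for Casq1, Casq2, Jph2, Srl, Hcn4 and Cacna1g, and the groups overlap for Cacnb2, Kcnd2 and the 4 endocannabinoid genes.

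A receptor of catecholamines and the receptor of apelin rose too. Adra1b, an alpha adrenergic receptor, rose by 0.68 (SE 0.14, adjusted p = 0.0181), with 11.1 to 13 FPKM in the treatment libraries and 5.6 to 10.2 FPKM in the case libraries. It was the 1 gene of 13 tested in the adrenergic list that rose, none fell, and 4.33% of all genes rose. None rose in the fit on the 8 libraries, and 6 rose and 3 fell without case library d. Adra1b lost the call without treatment a or b. Adrb1, the main beta receptor of the heart, was at 8.41, 6.96, 7.13 and 7.23 FPKM in the treatment libraries, 1.48, 2.64, 5.71 and 5.7 FPKM in the case libraries and 6.83 to 8.23 FPKM in the control libraries, and did not pass (0.94, SE 0.30, adjusted p = 0.064), although the groups did not overlap. Aplnr, the receptor of apelin, was at 7.9, 15.6, 13.4 and 9.86 FPKM in the treatment libraries, 0.529, 0.416, 1.75 and 6.9 FPKM in the case libraries and 25.8, 21.5 and 18.8 FPKM in the control libraries (log2 fold change 2.33, SE 0.65, adjusted p = 0.0422), and Apln, its peptide ligand, at 5.5, 6.29, 5.26 and 4.5 FPKM in the treatment libraries and 0.64, 1.19, 1.55 and 4.19 FPKM in the case libraries (log2 fold change 1.53, SE 0.39, adjusted p = 0.0325). In control libraries, Apln was at 9.68, 8.96 and 8.64 FPKM. For both genes case library d was close below the treatment libraries and all treatment libraries lay below the control libraries. Of 13 genes of apelin and retinol 4 rose and 1 fell (Aldh1a1), with 2 that rose in each fit that left out 1 library except that without case d, which gave 6, and 0 in the fit on the 8 libraries. Lrat, which stores retinol as an ester, was at 0.181, 0.349, 0.245 and 0.427 FPKM in the treatment libraries, 0.0831, 0.0326, 0.0942 and 0.133 FPKM in the case libraries and 3.38, 3.4 and 3.96 FPKM in the control libraries (log2 fold change 1.80, SE 0.33, adjusted p = 0.0121), so that both stressed groups were far below the control group. Vegfa, a growth factor of vessels, was at 69, 66.2, 59.9 and 59.4 FPKM in the treatment libraries and 33.7, 32.6, 39 and 45.1 FPKM in the case libraries (log2 fold change 0.74, SE 0.084, adjusted p = 0.0034). In control libraries, Vegfa was at 57.6, 57.9 and 52.4 FPKM. Aplnr was not called in 10 of the 11 leave-one-out fits (adjusted p up to 0.101), Apln in 10 and Lrat in 0.

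Of 15 genes of cholesterol and lipid synthesis 3 rose and 1 fell (median 0.18). Among them, the SREBP targets Scd2 (log2 fold change 0.52, SE 0.12, adjusted p = 0.0261) and Hmgcs1 (log2 fold change 0.35, SE 0.078, adjusted p = 0.0219) rose, and Insig1, which holds SREBP back, fell by 1.06 (SE 0.26, adjusted p = 0.0292). The number that rose was 1 without treatment a or case a and 7 without case d. Of 22 sarcomere genes 1 rose (Nebl, 0.34, SE 0.082, adjusted p = 0.029) and none fell, and the cardiac myosin gene Myh6 was at 3640.0 to 4082 FPKM in the treatment libraries and 3453 to 3857 FPKM in the case libraries (0.023, SE 0.084). The sarcomere counts were 3 that rose and 2 that fell without case library d, and Nebl lost the call without any 1 treatment library, case a or case b. Of 15 genes of hypertrophy 1 rose, the cardiac transcription factor Gata4 (log2 fold change 0.38, SE 0.095, adjusted p = 0.0314), and 1 fell, the matricellular protein Ccn2 (log2 fold change -1.94, SE 0.41, adjusted p = 0.0186), with a median of 0.24. In this list 6 rose and 1 fell without case library d (median 0.33), and leaving out 1 other library gave 0 or 1 that rose and 0 (treatment a or d) to 2 (case b) that fell. Gata4 was called in 3 of the 11 leave-one-out fits. The natriuretic peptide gene Nppa did not pass, at 89.3, 391, 251 and 98.3 FPKM in the treatment libraries and 82.9, 129.8, 67.3 and 237 FPKM in the case libraries (adjusted p = 0.372). The treatment and case libraries overlapped. Of 33 matrix genes 2 fell: Lox, which crosslinks collagen, at 2.64, 6.93, 4.14 and 1.65 FPKM in the treatment libraries, 33.6, 16.5, 7.14 and 14.6 FPKM in the case libraries and 1.7 to 1.94 FPKM in the control libraries (log2 fold change -2.28, SE 0.48, adjusted p = 0.0181), and the proteoglycan Dcn (log2 fold change -0.51, SE 0.092, adjusted p = 0.0107). That is no larger a share than the 6.57% of all genes that fell. The median of the matrix list was -0.13, and without case library d 7 members rose, 2 fell and the median turned to 0.33. In that fit 15.2% of all genes rose and 16.2% fell, which stands beside the sarcomere and hypertrophy counts too. Lox lost the call without treatment a.

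Of the 12 largest rises, taken by the same rule as the falls, 4 were in the list of platelet markers (Treml1, Gp9, Ppbp and Itga2b), and Tubb1, Nrgn and F5 are also known from platelets or clotting. Tubb1, the tubulin of platelets, was at 2.41, 4.35, 8.3 and 19.5 FPKM in the treatment libraries and 0.337, 0.248, 0.335 and 0.966 FPKM in the case libraries (log2 fold change 4.20, SE 0.75, adjusted p = 0.01). In control libraries, Tubb1 was at 0.0449, 0.768 and 0.288 FPKM. Ppbp, a chemokine of platelet granules, was at 5.7, 9.83, 17.2 and 37 FPKM in the treatment libraries and 0.712, 0.859, 1.71 and 2.89 FPKM in the case libraries (log2 fold change 3.52, SE 0.58, adjusted p = 0.00873). In control libraries, Ppbp was at 0.758, 1.68 and 1.06 FPKM. In both genes treatment library d was the highest and treatment library a the lowest of the treatment group, and all 4 were above the case libraries. Treml1, a receptor of platelet granules, was at 16, 33, 48 and 134 counts in the treatment libraries, 1, 0, 2 and 4 counts in the case libraries and 0, 6 and 0 counts in the control libraries (log2 fold change 5.01, SE 0.98, adjusted p = 0.0146). Gp9, a subunit of the receptor of von Willebrand factor, was at 26, 30, 104 and 181 counts in the treatment libraries, 5, 0, 5 and 12 counts in the case libraries and 3, 0 and 1 counts in the control libraries (log2 fold change 3.98, SE 0.83, adjusted p = 0.0178). These 2 genes were near 0 outside the treatment group, and their fold changes depend on the small counts there. Nrgn, neurogranin, which platelets also hold (log2 fold change 3.95, SE 0.58, adjusted p = 0.00516), Itga2b, the platelet integrin (log2 fold change 2.04, SE 0.46, adjusted p = 0.0222), and F5, coagulation factor V (log2 fold change 2.51, SE 0.50, adjusted p = 0.0158), rose as well, each lowest in treatment library a and highest in treatment library d.

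Of 9 platelet markers tested 6 rose and none fell (median 2.04), and the treatment libraries lay wholly above the case libraries for 6 of them. Over all genes 4.33% rose and 7.28% lay wholly above. Treml1 and Gp9, near 0 in the other groups, passed the filter on low counts only through the treatment group. So did Nrgn, which is not in this list, at 2 to 8 counts in the case libraries and 5 to 12 counts in the control libraries. With the filter of 1 CPM in 4 libraries, 4 markers were tested and 2 rose. The 10 markers summed to 37.9, 50.6, 76.2 and 155 CPM in the treatment libraries, and 33.8, 22.7, 21.5 and 32.1 in the case libraries. They summed to 16.2 and 17.5 CPM in control libraries a and b, and control library c also lay below every case library. Pf4, a platelet chemokine, did not pass, at 10.7, 13.1, 12.2 and 21.3 FPKM in the treatment libraries and 10.6, 3.87, 9.83 and 15.3 FPKM in the case libraries (0.53, SE 0.32). Erythroid markers, of which none of 8 passed in edgeR, 2 at an unadjusted p under 0.05 and 2 with DESeq2, summed to 627 to 1355 CPM in the treatment libraries, 482 to 850 in the case libraries and 176 to 211 in the control libraries. How much blood stayed in the hearts was not tested. Leaving out case a gave 3 markers that rose and leaving out treatment d gave 4, and the fit on the 8 libraries gave 3. Gp9 lost the call without treatment d or case a, and Itga2b without case a (adjusted p up to 0.0725 and 0.0805 over all alternatives).

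The other 5 of the 12 largest rises were Aplnr, Itgb6, Plekhh1, Klhdc8a and Apol10b. Klhdc8a, a kelch domain protein, was at 8.14, 8.85, 7.11 and 5.35 FPKM in the treatment libraries and 1.17, 1.31, 2.11 and 3.3 FPKM in the case libraries (log2 fold change 1.90, SE 0.25, adjusted p = 0.00516). In control libraries, Klhdc8a was at 7.55, 6.99 and 7.57 FPKM. Itgb6, an integrin subunit that activates TGF-β in epithelia, was at 7.63, 10.5, 7.89 and 7.99 FPKM in the treatment libraries and 0.45, 0.425, 2.23 and 4.97 FPKM in the case libraries (log2 fold change 2.11, SE 0.58, adjusted p = 0.0405). In control libraries, Itgb6 was at 7.89, 8.68 and 6.61 FPKM. Case libraries a and b were low for both, and the treatment and control ranges overlapped. Plekhh1 (log2 fold change 1.94, SE 0.40, adjusted p = 0.018) and Apol10b (log2 fold change 1.88, SE 0.51, adjusted p = 0.0401) rose too. Plekhh1 did not overlap in CPM with TMM scaling, by which the genes were taken, but in FPKM treatment library a, at 0.678, lay just below case library d, at 0.698. Klhdc8a kept its call in all 11 leave-one-out fits, Plekhh1 lost it without treatment b or case a, Apol10b in 9 of the 11, and Itgb6 in 10, all but the fit without case d (adjusted p = 0.000569).

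**Figure D5:**
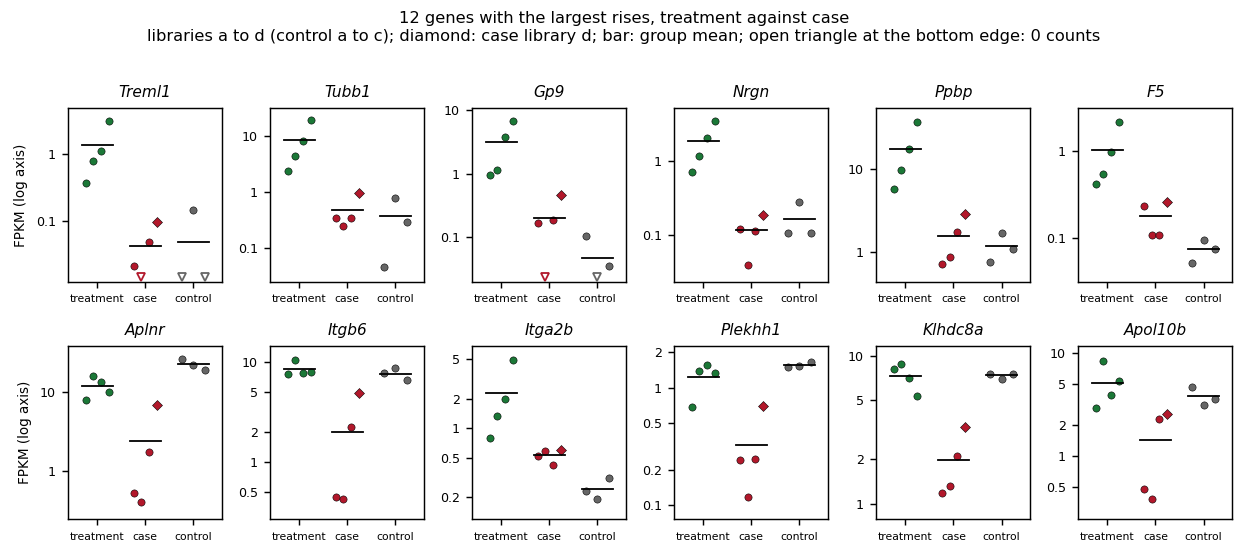
FPKM of the 12 genes with the largest rises in each library (points, log axis) for the treatment, case and control groups, with a bar at the group mean, a diamond for case library d and open triangles for libraries with 0 counts. In the platelet and clotting genes treatment library d is the highest point, and in Aplnr, Itgb6, Klhdc8a and Apol10b case libraries a and b are the lowest points.

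The receptor that JWH133 acts on, and the enzymes that make and break down its natural ligands, did not pass. Cnr2, which encodes CB2R, was at 0.373, 0.307, 0.321 and 0.228 FPKM in the treatment libraries, 0.454, 0.168, 0.278 and 0.333 FPKM in the case libraries and 0.174, 0.373 and 0.243 FPKM in the control libraries, from 46, 36, 39 and 27 counts in the treatment libraries (log2 fold change -0.027, SE 0.34, adjusted p = 0.966). Of 8 endocannabinoid genes tested none passed in edgeR or DESeq2 (median -0.023), and 1 did in edgeR at an unadjusted p under 0.05. Mgll, the lipase that breaks down 2-arachidonoylglycerol, was at 29, 25, 25.3 and 30.6 FPKM in the treatment libraries and 35.2, 41, 27.9 and 27.6 FPKM in the case libraries (-0.30, SE 0.15, adjusted p = 0.204). Dagla, which makes that ligand, was at 1.49, 1.54, 1.76 and 1.82 FPKM in the treatment libraries and 1.07, 1.21, 0.971 and 1.76 FPKM in the case libraries (0.38, SE 0.17, adjusted p = 0.15). Case library d lay inside the treatment range for both, and without it Mgll fell (adjusted p = 0.0427) and Dagla rose (adjusted p = 0.016). Daglb (-0.0011), Napepld, which makes anandamide precursors (-0.049), the hydrolases Abhd6 (-0.25) and Abhd12 (-0.018) and the channel Trpv1 (0.43) did not pass, with SE of 0.092 to 0.39. Cnr1, the gene of the type I receptor, had only 2 to 3 counts in the treatment libraries, 1 to 2 in the case libraries and 0 to 1 in the control libraries and was not tested, and neither were Gpr55 and Faah, at 23 counts or fewer in every library. Of 24 genes of inhibitory G proteins, adenylyl cyclases, phosphodiesterases and protein kinase A 1 rose, Prkaca, the catalytic subunit of protein kinase A (112 to 116 FPKM in the treatment libraries and 77.7 to 103 FPKM in the case libraries, log2 fold change 0.34, SE 0.079, adjusted p = 0.0252), and none fell, a share close to the 4.33% of all genes that rose. Prkaca lost the call without any 1 treatment library, case a or case b. Without case library d 6 of these genes rose and 2 fell (median 0.14, against 0.041 with it), and 2 rose without case c. Over all genes 15.2% rose and 16.2% fell without case library d.

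Genes of cell division passed at shares near or below those of all genes (4.33% rose and 6.57% fell). Of 40 genes of mitosis 2 rose, Ncapg, a condensin subunit (log2 fold change 1.37, SE 0.36, adjusted p = 0.0358), and Cenpa, the centromeric histone (log2 fold change 0.62, SE 0.13, adjusted p = 0.0181), and none fell. Mki67, made by dividing cells, was at 0.726, 0.892, 0.626 and 1.1 FPKM in the treatment libraries, 0.943, 0.812, 0.635 and 0.959 FPKM in the case libraries and 3.89, 4.05 and 3.95 FPKM in the control libraries (-0.03, SE 0.18, adjusted p = 0.929). The treatment and case libraries overlapped, and both lay below every control library. The list score was -1.40 to -1.04 in the treatment libraries, -1.77 to -1.33 in the case libraries and -0.016 to 0.022 in the control libraries. Among 28 DNA replication genes 2 fell, the helicase subunits Mcm4 (-0.48, adjusted p = 0.0315) and Mcm7 (-0.56, adjusted p = 0.0223), and of 50 histone genes 2 fell. Leaving out case library d, 6 genes of mitosis rose, 5 of DNA replication fell and 1 rose, and 10 histone genes fell. In that fit 15.2% of all genes rose and 16.2% fell. Mitosis genes that rose were 0 without treatment b or d or case a, and 1 without any other single library. Replication genes that fell were 0 without treatment a or b or case a, and 1 without treatment c or d, case b or c, or control a or c. No histone gene fell without any other single library but case c, where 3 did. Ncapg was not called in 10 of the 11 leave-one-out fits, all but that without case d, Mcm4 in 7, Mcm7 in 5 and Cenpa in 3. None of 74 cytosolic and 77 mitochondrial ribosomal protein genes passed in edgeR (medians -0.072 and 0.089), 5 and 8 did at an unadjusted p under 0.05, and 1 and 3 with DESeq2.

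Some markers of the main cell types of the heart passed, to be read beside the 4.33% of all genes that rose and the 6.57% that fell, and the 15.2% and 16.2% without case library d. None of 9 cardiomyocyte markers passed in edgeR (median 0.23), although their sums did not overlap between the treatment and case libraries, and 3 passed with DESeq2 and 3 at an unadjusted p under 0.05. Of the others, 1 of 10 fibroblast markers fell (Dcn), and 2 of 10 markers of smooth muscle and pericytes rose. When case library d was left out, 2 fibroblast markers rose and 1 fell, and the median of that list turned to 0.19, against -0.11 with it, while 5 markers of smooth muscle and pericytes rose, and 1 did without any 1 treatment or control library, case a or case b. Of 16 endothelial markers 5 fell and 1 rose, and the markers summed to 2107 to 2249 CPM in the treatment libraries, 2204 to 2467 in the case libraries and 2109 to 2181 in the control libraries. With 1 library left out, 1 endothelial marker fell without treatment a, b or d or case a, 2 without treatment c, case b, case c, control a or control c, and 3 without control b. The fit without case library d gave 7 that fell and 3 that rose, the highest counts of these fits, and 3 also rose without case c and 0 without case a. Pecam1, an adhesion molecule of endothelium, was at 36.5, 35.4, 36 and 34.2 FPKM in the treatment libraries, 60.4, 55.2, 48.5 and 37.5 FPKM in the case libraries and 38.5 to 39.8 FPKM in the control libraries (log2 fold change -0.55, SE 0.14, adjusted p = 0.0363), with case library d close to the treatment libraries. None of 8 neutrophil markers passed in edgeR, also at an unadjusted p under 0.05, or in DESeq2, and 1 of 8 T and NK cell markers fell (Cd2). The part of cell numbers in the results was not tested.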

How the data were processed

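Whole heart total RNA of male mice was sequenced on an Illumina instrument in paired-end mode. The authors deposited raw read counts per gene, with a gene length in bases, in 1 table of 21898 genes, of which 17471 had a count. Per the submitters' processing notes, reads were handled with HISAT2, TopHat2 and cutadapt on the mm10 build. Neither versions nor the tool that counted reads are given in the sources used here. Columns were mapped to groups by their names, the letters a to d name libraries and tie no library to one in another group, 11 other per-library value columns were not used, and 1 line without a gene was left out. The single-end libraries of the series were not analysed here.

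Counts were fitted with edgeR 4.0.16 in R 4.3.3 (quasi-likelihood, TMM scaling, filterByExpr) in 1 model of treatment, case and control, and the contrast was treatment minus case. The SE of a fold change was its size over the root of the F statistic. DE-mRNAs are genes with a log2 change larger than 1 in size and an unadjusted p under 0.05. FPKM was the count over length and library total, and list scores used log2(CPM + 0.5). The procedure was tested on simulated data with 200 changed genes and the same spread in every group, so that test does not cover groups of unequal spread. P-values set the difference between groups against the spread between these libraries, which the model takes as shared by treatment, case and control.

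The 24 genes with the largest changes were the 12 largest falls and 12 largest rises among called genes that were also called with the same sign in the fit on 8 libraries or without case library d, with groups that did not overlap and at least 1 FPKM in the higher group. To them were added the endocannabinoid genes, the 13 ER stress genes of the study, up to 4 called members of each list, and members that stand for its role. Some further members were named after their values were seen. The members and lists were chosen with earlier results of these data known. Alternatives were DESeq2 1.42.0 and its size factors, limma 3.58.1 on log2(FPKM + 0.1), voom with library weights, no filter, a filter of 1 CPM in 4 libraries, a robust spread, the 8 libraries alone, each library left out, and, chosen after seeing the data, the 8 libraries without case library d. Library totals were 29410822 to 34412849 counts, so that precision is limited by the number of libraries and, for low genes, by counting error. Some members of the lists are not reported here by name.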

Additional observations from a re-analysis of the deposited data

Results flagged for a closer look

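In 104 groups of 4 values, 9 had 1 library far from the other 3 by Dixon's ratio of the gap to the range, and chance gives this in about 1 in 20 groups. Case library d was the one in 4 of the 9, case library a and treatment library b in 2 each and treatment library d in 1. Fos stood at 2.13 FPKM in treatment library d, against 0.453 to 0.708 FPKM in the other treatment libraries (ratio 0.848). Ppp1r15a was lowest in treatment library b, at 4.16 FPKM against 4.35 to 4.39 FPKM (ratio 0.830), a gap that is small in size, and Itgb6 was highest there, at 10.5 FPKM against 7.63 to 7.99 FPKM (ratio 0.874).

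In the case group, Hp stood at 8.53 FPKM in library a against 1.94 to 2.82 FPKM in the other libraries (ratio 0.865), and Atf3 at 21.7 FPKM in library a against 5.87 to 8.28 FPKM (ratio 0.847). In case library d, Tfrc was at 25.7 FPKM against 2.24 to 4.01 FPKM (ratio 0.924), Tubb1 at 0.966 FPKM against 0.248 to 0.337 FPKM (ratio 0.876) and Serpina3n at 77.6 FPKM against 127 to 134 FPKM (ratio 0.883). The score of the acute phase list was 0.33 in case library d against 1.36 to 1.54 in the other case libraries (ratio 0.850).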

How the results depend on the processing

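No paired analysis was possible because the letters of the libraries are not tied to replicate numbers that the groups share. Of 123 named genes that were called, 0 changed sign under any alternative, and 76 lost the call in at least 1 fit that left out a library. Of the 12 largest falls 10 passed in the fit on the 8 libraries and 11 in all 11 fits that left out a library, and of the 12 largest rises 5 and 6. Called genes numbered 1531 in the fit over 11 libraries, 2559 with DESeq2, 3134 with voom and library weights, 270 on the 8 libraries and 3431 on those without case library d, an alternative chosen after seeing the data. Leaving out 1 library gave 373 to 4392 called genes. DE-mRNAs numbered 489 with limma on FPKM, against 750, and 539 to 1187 with 1 library left out. The genes of the lists that were called numbered 174, against 267 with voom, 48 on the 8 libraries, 277 on those without case library d, and 62 to 353 with 1 library left out. On the 8 libraries 10 glucocorticoid-induced, 12 immediate early and 3 FoxO genes fell, and with 1 library left out 11 to 23, 13 to 20 and 5 to 20. Interferon-stimulated genes that rose numbered 18 with DESeq2, 2 with limma on FPKM, 3 with voom, 0 on the 8 libraries, 2 with a robust spread, 3 on the 8 libraries without case library d, and 0 to 16 with 1 library left out. Genes whose groups do not overlap numbered 2149 to 4846 with 1 library left out. Uncalled endocannabinoid genes close to 0 changed sign: Cnr2 to 0.033 with limma on FPKM and 0.0058 with voom, with -0.22 to 0.25 when a library was left out, Napepld with -0.14 to 0.072 when a library was left out, Daglb to 0.030 with limma on FPKM, 0.038 with voom and 0.050 on the 8 libraries without case library d, with -0.083 to 0.053 when a library was left out, and Abhd12 to 0.0064 with limma on FPKM and 0.0019 on the 8 libraries without case library d, with -0.090 to 0.039 when a library was left out. The cause of these changes was not tested. Depth limits Cnr1, Gpr55 and Faah, which were not tested, and the platelet genes at few counts outside the treatment group.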
